A study of Mus musculus with 10 samples.

Results

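Colony stimulating factors are secreted proteins that keep myeloid cells alive and make them divide, and 6 genes for such ligands and their receptors were examined in microglia, the macrophages that live in the brain. They were chosen by name as the ligands Csf1 and Il34, the receptor Csf1r, and the receptor chains Csf2ra, Csf2rb and Csf2rb2. All 6 were among the 24453 gene symbols of the table. The RNA came from 10 libraries of magnetic-bead-isolated microglia of C57bl6 mice that had received no treatment, in 4 groups. In the ageing experiment, 3 libraries came from mice aged 15 months (aged) and 3 from mice aged 10 weeks (young). In the other experiment, 2 libraries carried the label Rab7 deltaMG and another 2 the label Rab7 Control, all from mice aged 3 months. The series describes the deltaMG mice as lacking Rab7, a small GTPase that directs late endosomes to lysosomes, but the labels name neither the deleted allele nor the cells or promoter that drove the deletion.

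CSF1R is a receptor tyrosine kinase on which microglia depend for their survival, and it binds both CSF1 and IL-34. In the brain IL-34 is made mainly by neurons and CSF1 mainly by glia. After binding its ligand the receptor is tagged by the ubiquitin ligase CBL and broken down in lysosomes. The receptor for GM-CSF, the product of Csf2, pairs a ligand-binding alpha chain (Csf2ra) with a common beta chain (Csf2rb) that also serves IL-3 and IL-5 and signals through the kinase JAK2. Mice carry an additional beta chain gene, Csf2rb2, whose product serves IL-3 only.

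Csf1, the ligand, was the member that differed between groups in both experiments. It was 1.77-fold higher in aged than in young libraries and 2.69-fold lower in the libraries labelled deltaMG than in those labelled control. Csf2rb, the common beta chain, was 1.69-fold higher in aged libraries. Both ageing calls depended on the settings: that of Csf1 passed under 16 of 21 alternatives and that of Csf2rb under 10 of 21. Csf1r was the most abundant member in every library and did not pass the test in either experiment. Il34 was at or near 0 throughout.

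Values are RPM, the reads of a gene per 1000000 reads of the library. The low values of the table put 6098271 to 9907448 reads behind the scaling, so that 1 read was worth 0.101 to 0.164 RPM. Nothing in the labels ties each library to an animal of its own, so the p-values describe the spread between libraries, which may be technical. Young libraries held Xist, the RNA of the inactive X chromosome, at 1715 to 1771 RPM and aged libraries at 0.127 to 0.940 RPM, while 4 Y-linked genes summed to 35.7 to 48.7 RPM in aged and at most 0.288 RPM in young libraries. Age and sex therefore cannot be told apart. The libraries labelled control and deltaMG each carried transcripts of both sexes. Under the control label Xist was at 924 to 1410 RPM and the Y-linked genes at 19.3 to 25.8 RPM. Under the deltaMG label Xist was at 1171 to 1562 RPM and the Y-linked genes at 9.11 to 20.3 RPM. Whether the mix of sexes bears on the member levels was not tested. Rab7 itself measured 64.2 and 67.5 RPM under the control label and 72.2 and 79.4 RPM under the deltaMG label (log2 fold change 0.20, limma adjusted p = 0.668). It was not lower under the deltaMG label, so it does not check the labels, and the word labelled is kept for these groups. Cx3cr1, a microglial chemokine receptor, was at 398 and 437 RPM under the control label and at 965 and 1285 RPM under the deltaMG label. The labelled cell type was checked with 9 microglia markers, all present in every library, which summed to 2664 to 3121 RPM in aged libraries and to 3522 to 4712 RPM in the others. Markers of neutrophils and monocytes were also present. Border macrophage markers summed to 17.7 to 34.3 RPM and oligodendrocyte markers to 18.6 to 27.8 RPM over all libraries. Neuron markers summed to 2.92 to 6.46 RPM in aged libraries and to 0.724 to 1.44 RPM in the others. Whether such cells bear on the member levels was not tested.

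Sequences were examined for Csf1 and for the beta chains. The 250 bases before the RefSeq start of Csf1 (GRCm38.p6, chr3:107760470-107760719, minus strand) are printed because Csf1 was the member that moved in both experiments. Capitals mark a match to a kappa B element, a sequence that NF-kappaB can bind. The element is read on the other strand, and the capitals as printed begin 154 bases before the start.

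Csf1 promoter: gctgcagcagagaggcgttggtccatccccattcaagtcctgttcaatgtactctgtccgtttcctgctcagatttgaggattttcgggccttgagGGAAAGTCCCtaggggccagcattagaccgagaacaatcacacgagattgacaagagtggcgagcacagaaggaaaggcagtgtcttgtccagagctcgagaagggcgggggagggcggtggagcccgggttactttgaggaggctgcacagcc

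Of 32851 promoter windows of this length searched on both strands, 46 (0.14%) held these letters. The Csf2ra and Csf2rb2 windows did not, and the other members had no entry. The match is a description of the letters and not of binding, and any bearing on the level of Csf1 was not tested.

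Csf2rb and Csf2rb2 lie beside each other on chromosome 15 and were 95.2% identical over 2628 aligned coding bases of their GENCODE transcripts, so reads from the pair can be confused. Of the stretches of 50 bases in the Csf2rb coding sequence, 26.0% also occurred in Csf2rb2, and of stretches of 100 bases 11.0% did. The longest identical run was 242 bases. The 90-base windows within an exon that were most and least alike are shown to mark where reads could and could not be told apart, with differing bases in capitals. The most alike window lies in exon 8 of Csf2rb (GRCm38, chr15:78341658-78341747, plus strand) and exon 8 of Csf2rb2 (chr15:78291563-78291652, minus strand), with 0 of 90 bases different. The least alike lies in exon 4 of Csf2rb (chr15:78338897-78338986, plus strand) and exon 4 of Csf2rb2 (chr15:78294345-78294434, minus strand), with 16 of 90 bases different.
Csf2rb, most alike: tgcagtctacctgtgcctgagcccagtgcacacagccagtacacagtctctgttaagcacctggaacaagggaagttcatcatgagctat
Csf2rb2, most alike: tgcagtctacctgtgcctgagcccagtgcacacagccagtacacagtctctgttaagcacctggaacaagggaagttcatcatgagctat
Csf2rb, least alike: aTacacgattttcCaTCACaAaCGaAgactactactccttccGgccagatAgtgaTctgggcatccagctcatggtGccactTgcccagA
Csf2rb2, least alike: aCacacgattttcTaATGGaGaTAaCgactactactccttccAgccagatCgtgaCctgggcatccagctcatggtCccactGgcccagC

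The ligands came first. Csf1 (chromosome 3, 107741048 to 107760469, minus strand, GRCm38) was at 13.9, 14.6 and 10.1 RPM in young replicates 1, 2 and 3 and at 19.9, 24.0 and 26.4 RPM in the aged ones. In the other experiment it was at 26.6 and 28.9 RPM under the control label and at 10.8 and 8.68 RPM under the deltaMG label. These levels rested on 60 to 238 reads per library. In bulk RNA, fewer cells of a type and less RNA per cell cannot be told apart. The groups did not overlap in either experiment, and the 2 libraries labelled control had the highest values of all 10. Of all tested genes, 23.9% did not overlap in the ageing comparison and 51.8% between the labelled groups.

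In the ageing comparison Csf1 rose from 12.8 RPM ± 2.43 in young to 23.4 RPM ± 3.30 in aged libraries (SD, n = 3 each). On the log2(RPM + 1) scale used for every fold change, which understates those of low genes, this was 0.83 ± 0.18 (SE), with a 95% interval of 0.45 to 1.20 and limma adjusted p = 0.0141. Neutrophil markers summed to 858, 1288 and 462 RPM in young and to 1540, 828 and 4148 RPM in aged libraries, and monocyte markers to 51.4 to 84.5 and 139 to 428 RPM. All 11 neutrophil and 7 monocyte markers were above 0 in every library. Fitted with the neutrophil score of each library as a covariate, Csf1 had a log2 fold change of 0.66 (limma adjusted p = 0.0586). A monocyte score, an alternative chosen after seeing the data, gave 0.46 (limma adjusted p = 0.539), with a standard error of 0.30 in place of 0.18. Monocyte sums did not overlap between the groups of either experiment. For every member, a fit with this score therefore separates score from group only poorly. The call also ended without young replicate 3 (0.67, adjusted p = 0.0598).

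In the other comparison Csf1 fell, from 27.8 RPM ± 1.63 under the control label to 9.72 RPM ± 1.47 under the deltaMG label (SD, n = 2 each). Its log2 fold change of -1.43 ± 0.22 (SE) had a 95% interval of -1.89 to -0.97 and limma adjusted p = 0.00169. It passed under 21 of 21 alternative settings. Many of these, such as leaving out a young or aged library, kept the estimate at -1.43 and changed only its standard error. Leaving out a library of this comparison left 1 library in its group and gave estimates of -1.57 to -1.29. Neutrophil markers summed to 541 and 310 RPM under the control label and to 1652 and 1026 RPM under the deltaMG label, and monocyte markers to 48.1 to 59.9 and 97.2 to 134 RPM. With the neutrophil score as a covariate the log2 fold change of Csf1 was -1.68, and with the monocyte score -1.65. Neither sum overlapped between the labelled groups, so these fits separate score from group only poorly.

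The effects on Csf1 in the 2 experiments, which share no library, differed by 2.26 on the log2 scale (standard error 0.28, limma adjusted p = 0.000263). That test passed under 20 of 20 alternatives that kept the labels as deposited. With the deltaMG and control labels exchanged, a reading added after seeing the data because Rab7 does not check them, Csf1 would be higher in both experiments (0.83 and 1.43). The difference of effects would then be -0.60 (limma adjusted p = 0.246), which does not pass. With the deposited labels, 14 of the 4151 genes tested, Csf1 among them, were called higher in aged libraries and lower in those labelled deltaMG. Another 7 were called lower in the first and higher in the second, 11 higher in both and 2 lower in both. The labelled control libraries, at an age of 3 months, were closer in Csf1 to the aged libraries than to the young ones of 10 weeks, a comparison across experiments that was not tested.

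**Figure D1:**
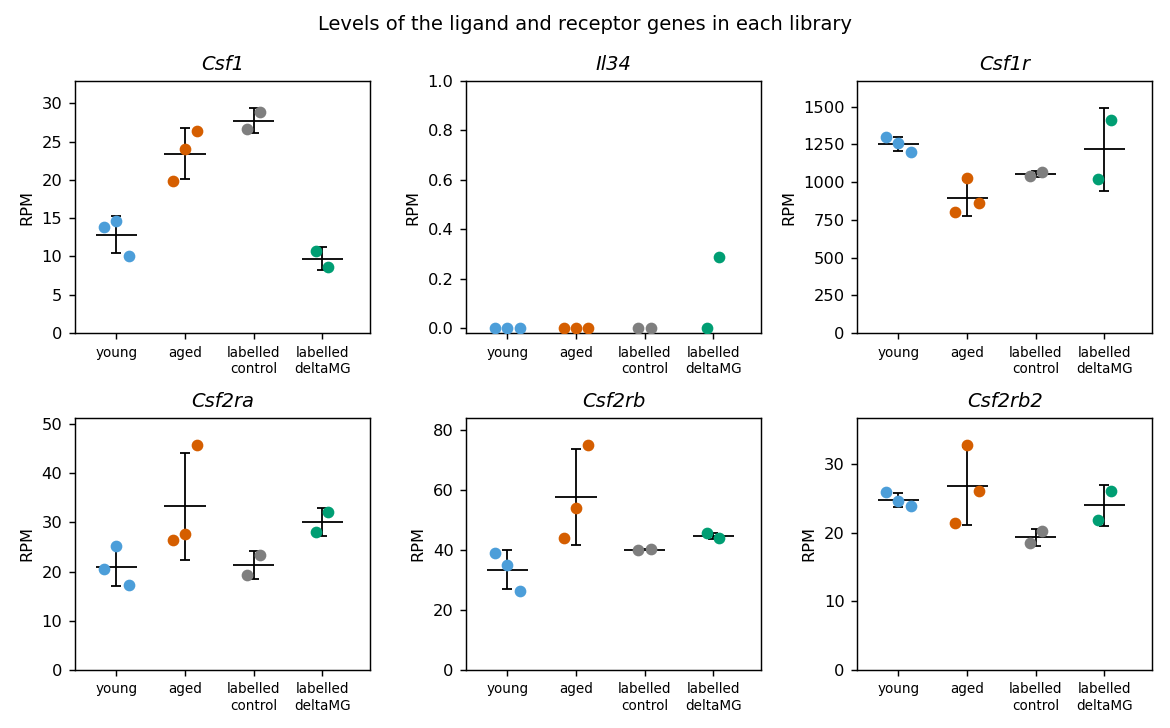
RPM of the 6 genes (y axes, each from 0) in every library, with 1 point per library, and the mean and SD of each group as a line and bar (not drawn for Il34). Csf1 lay between 8.68 and 14.6 RPM in the young and labelled deltaMG libraries and between 19.9 and 28.9 RPM in the aged and labelled control libraries.

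Il34, the other ligand of CSF1R (chromosome 8, 110741829 to 110805924, minus strand, GRCm38), was listed at 0 in 9 of 10 libraries. In the library labelled deltaMG replicate 2 it was at 0.289 RPM, which is 2 reads. A count of 0 allows up to 3 reads, or 0.303 to 0.492 RPM depending on the library, counting error only. Il34 did not reach the minimum of 10 RPM and was not tested by limma. A two-sided exact permutation test gave p = 1 in both comparisons, which carries no information on Il34. All young and aged libraries had the same value, and only 1 library of the other experiment was above 0.

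Among the receptors, Csf1r (chromosome 18, 61100598 to 61132149, plus strand, GRCm38) was at 1298, 1263 and 1203 RPM in young replicates 1, 2 and 3. In the aged libraries it was at 799, 1031 and 862 RPM, all below the young ones. The libraries labelled control held 1038 and 1068 RPM and those labelled deltaMG 1024 and 1411 RPM, so the last 2 groups overlapped. Csf1r overlaps Hmgxb3, on the opposite strand, by 873 bases, and reads of the pair cannot be told apart there because the strand setting is not given in the sources used here.

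Csf1r had a mean of 1255 RPM ± 47.8 in young and 897 RPM ± 120 in aged libraries (SD, n = 3 each). The log2 fold change was -0.49, with a 95% interval of -0.79 to -0.19 and a limma adjusted p of 0.0550, just outside the threshold of 0.05. It passed without aged replicate 2 (-0.59, adjusted p = 0.0224). Leaving out a library labelled deltaMG, which is not part of this comparison, kept the estimate at -0.49. Only the standard error changed there, from 0.14 to 0.12, through the shared spread. The log2 fold change was smaller with quantile normalisation (-0.30, adjusted p = 0.106), the neutrophil score (-0.41, adjusted p = 0.177) and the monocyte score (-0.28, adjusted p = 0.666). With the monocyte score the standard error was 0.25, against 0.14 as reported. Microglia markers as a whole were also lower in aged libraries, with 6 of 9 called lower against 2.99% of all tested genes, and Csf1r per 100 RPM of these markers was 28.0 ± 2.36 in young and 31.0 ± 4.88 in aged libraries (SD, n = 3 each). That ratio overlapped between the groups (two-sided exact permutation p = 0.5, where the smallest possible is 0.1).

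Between the labelled groups Csf1r had a log2 fold change of 0.19 with a 95% interval of -0.18 to 0.56 (limma adjusted p = 0.619), and its sign turned without the library labelled deltaMG replicate 2 (-0.040). Of the 686 other genes averaging 50 RPM or more, those with the library profiles nearest to Csf1r were Dip2b, Zfhx3, Adgrg1, Frmd4a and Nckap1l. After each gene's own mean was subtracted they differed from Csf1r by a root mean square of 0.08 to 0.10 on the log2 scale over the 10 libraries, against a median of 0.27 for the genes compared. A gene with a flat profile would differ from Csf1r by 0.25.

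Csf2ra, the alpha chain of the GM-CSF receptor (chromosome 19, 61223957 to 61228429, minus strand, GRCm38), was at 20.5, 25.3 and 17.3 RPM in young and at 26.5, 27.6 and 45.8 RPM in aged replicates 1, 2 and 3. It was at 19.3 and 23.4 RPM under the control label and at 28.1 and 32.1 RPM in those labelled deltaMG. The groups did not overlap in either experiment, as for 23.9% of all tested genes in the ageing comparison and 51.8% between the labelled groups. The log2 fold change was 0.61 in the ageing comparison (95% interval 0.18 to 1.04, limma adjusted p = 0.0907) and 0.48 between the labelled groups (-0.05 to 1.01, adjusted p = 0.322). Neither passed as reported. The first passed with median-of-ratios rescaling (0.66, adjusted p = 0.0391) and without aged replicate 2 (0.72, adjusted p = 0.0473). It was 0.32 (adjusted p = 0.394) with the neutrophil score. With the monocyte score it was -0.092, with a standard error of 0.28 against 0.20 as reported. The second was 0.035 (adjusted p = 0.957) with the neutrophil score and 0.056 (adjusted p = 0.932) with the monocyte score, both sums being higher under the deltaMG label.

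Csf2rb, the common beta chain (chromosome 15, 78325752 to 78353847, plus strand, GRCm38), was at 38.9, 35.1 and 26.2 RPM in young and at 43.9, 53.9 and 75.2 RPM in aged replicates 1, 2 and 3. The highest value was in aged replicate 3, the library with the highest neutrophil and monocyte sums, and no aged library was within the young range. The mean of Csf2rb rose from 33.4 RPM ± 6.53 in young to 57.6 RPM ± 16.0 in aged libraries (SD, n = 3 each), or by 0.75 ± 0.18 (SE) on the log2 scale (limma adjusted p = 0.0288). The call was lost on leaving out any of 5 libraries. The log2 fold change was 0.55 (adjusted p = 0.0821) without aged replicate 3, 0.59 (adjusted p = 0.1003) without young replicate 3 and 0.80 (adjusted p = 0.0575) without young replicate 2. It stayed at 0.75 without either library labelled control (adjusted p = 0.0519 and 0.0521). With the neutrophil score the log2 fold change was 0.50 (adjusted p = 0.105) and with the monocyte score 0.14 (adjusted p = 0.864). With the monocyte score the standard error was 0.26, against 0.18 as reported.

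Between the labelled groups Csf2rb was at 39.97 and 40.3 RPM under the control label and at 45.5 and 44.0 RPM under the deltaMG label. These did not overlap, as for 51.8% of all tested genes. The log2 fold change was 0.15 with a 95% interval of -0.33 to 0.63 (limma adjusted p = 0.795), and it was -0.24 with the neutrophil score. The effects in the 2 experiments differed by 0.60 (-0.02 to 1.22, limma adjusted p = 0.295), so they were not shown to differ.

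Csf2rb2, the beta chain used by IL-3 alone (chromosome 15, 78282507 to 78305721, minus strand, GRCm38), was at 25.8, 24.6 and 23.9 RPM in young and at 21.5, 32.8 and 26.0 RPM in aged libraries. The groups overlapped, with a log2 fold change of 0.09 (95% interval -0.26 to 0.43, limma adjusted p = 0.815). The libraries labelled control were at 18.4 and 20.2 RPM and those labelled deltaMG at 21.9 and 26.0 RPM, a log2 fold change of 0.29 (-0.13 to 0.71, adjusted p = 0.465).

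Because the beta chains share sequence, their sum was examined as well. Csf2rb and Csf2rb2 together were at 64.8, 59.7 and 50.1 RPM in young and at 65.3, 86.7 and 101 RPM in aged libraries, without overlap. Csf2rb made up 57.1% ± 4.18 of the sum in young and 67.9% ± 6.09 in aged libraries (SD, n = 3 each). For both measures the two-sided exact permutation p was 0.1, the smallest that 3 against 3 allow.

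**Figure D2:**
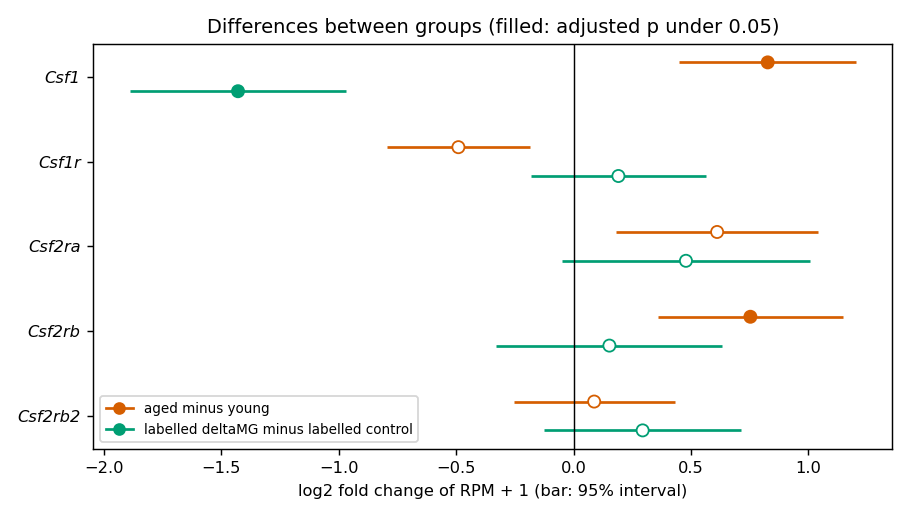
Log2 fold change of RPM + 1 (x axis) with its 95% interval for the 5 tested genes (y axis) in both comparisons, filled where the limma adjusted p was under 0.05. Csf1 lies at 0.83 and -1.43, and Csf2rb at 0.75 and 0.15.

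Of the 5 members tested, 2 were called higher and 0 lower in aged libraries, against 6.14% of the 4151 genes tested, with 3.16% called higher and 2.99% lower. Between the labelled groups 0 were called higher and 1 lower, against 3.78% of genes, or 2.58% in the lower direction. For the difference of the 2 effects 1 member was called, Csf1, against 4.79% of genes, with 2.67% called higher and 2.12% lower. The median log2 fold change of the members was 0.61 in the ageing comparison, where that of all tested genes was -0.05, and 0.19 between the labelled groups, where it was -0.02. Ranges did not overlap for 4 of 5 members in each experiment, against 23.9% of genes in the ageing comparison and 51.8% between the labelled groups. The 255 calls of the ageing comparison were 131 higher and 124 lower, but 221 and 109 with median-of-ratios rescaling. For the labelled groups the 157 calls were 50 and 107, and 104 and 135 after that rescaling.

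Ratios within a library do not depend on the scaling. Csf1 per 100 RPM of Csf1r was 1.07, 1.16 and 0.837 in young and 2.49, 2.33 and 3.06 in aged libraries. It was 2.56 and 2.71 in the libraries labelled control and 1.05 and 0.615 in those labelled deltaMG. Ligand relative to receptor was thus 2.58 times as high in aged as in young libraries (two-sided exact permutation p = 0.1) and 0.316 times as high in the libraries labelled deltaMG as in those labelled control (exact p = 0.333), each the smallest p its design allows. Csf2rb relative to Csf2ra, the partners of the GM-CSF receptor, was 1.60 ± 0.266 in young and 1.75 ± 0.178 in aged libraries (SD, n = 3 each), which overlapped (exact permutation p = 0.4). Between the labelled groups this ratio was 2.07 and 1.72 under the control label and 1.62 and 1.37 under the deltaMG label, without overlap (exact permutation p = 0.333, the smallest possible).

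**Figure D3:**
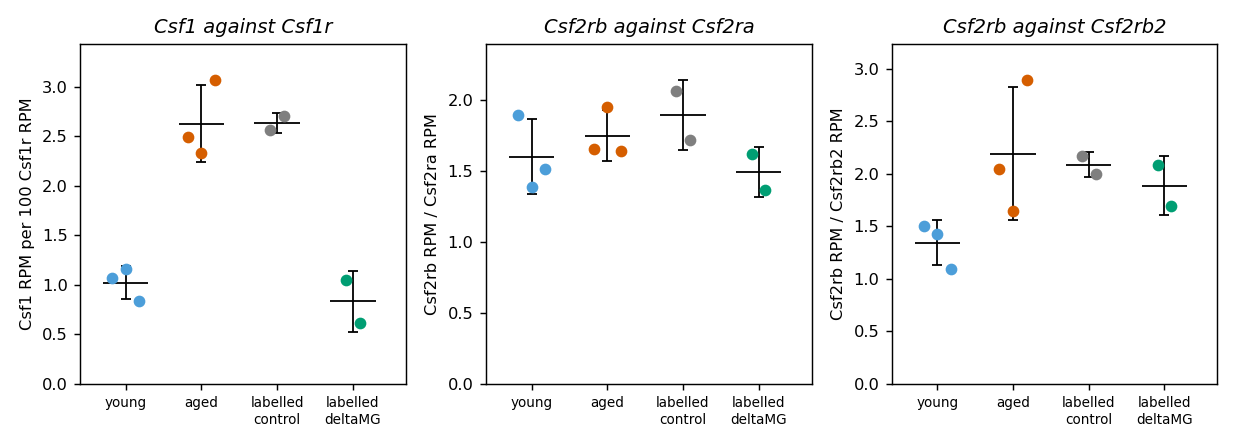
Ratios of RPM within each library (y axes from 0), with 1 point per library and the mean and SD of each group. Csf1 per 100 RPM of Csf1r was at 0.615 to 1.16 in young and labelled deltaMG libraries and at 2.33 to 3.06 in aged and labelled control libraries.

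Levels of different genes were compared per kilobase of annotated exon. On that scale of RPM per kb Csf1r was the highest member in 10 of 10 libraries, at 138 to 244, which was 9.35 to 34.6 times the next member. Csf2ra followed at 6.02 to 16.0 and was above Csf2rb, at 3.60 to 10.3, in 10 of 10 libraries. In RPM, without division by length, Csf2rb was above Csf2rb2 in 10 of 10 libraries. Per kb Csf2rb and Csf2rb2, at 3.89 to 6.92, changed places, with Csf2rb above in 7 libraries and below in the 3 young ones. Csf1, at 1.64 to 5.47, was below Csf2rb2 except in the 2 libraries labelled control, and Il34 was last in 10 of 10.

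**Figure D4:**
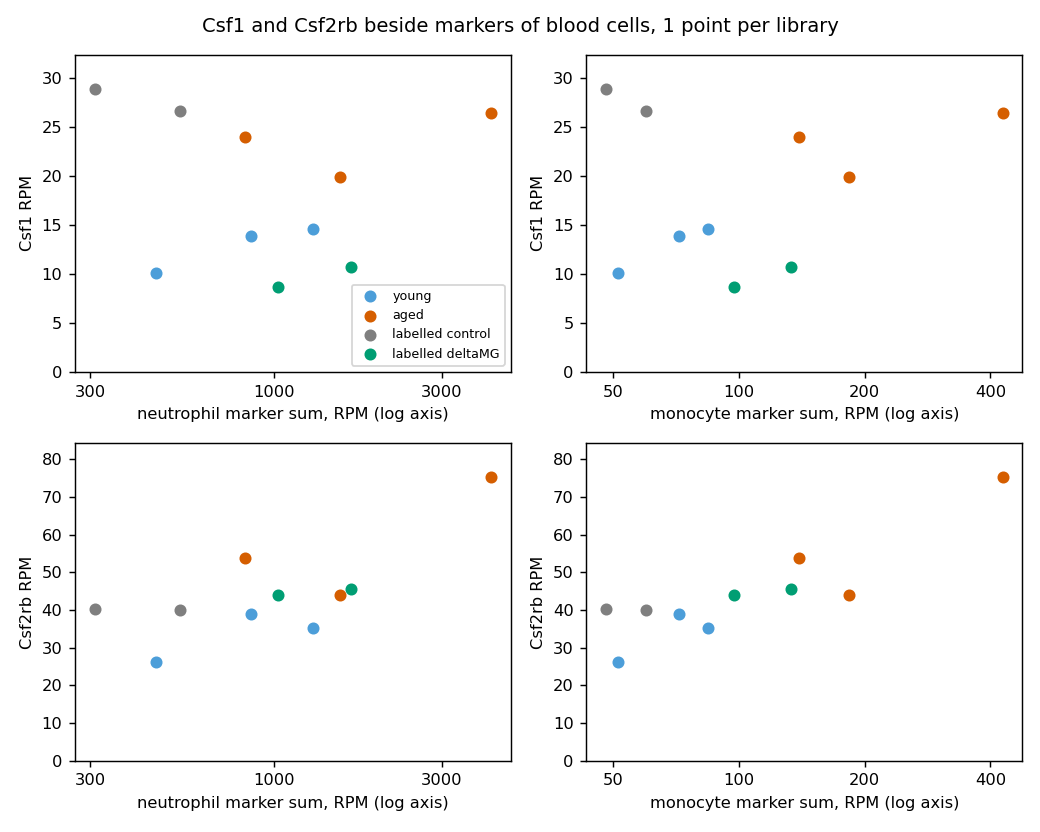
RPM of Csf1 (top) and Csf2rb (bottom, y axes from 0) against the summed RPM of 11 neutrophil and 7 monocyte markers (log x axes), with 1 point per library. Aged replicate 3 has the highest marker sums, 4148 and 428 RPM, and the highest Csf2rb, 75.2 RPM, while the 2 libraries labelled control have the highest Csf1, 26.6 and 28.9 RPM, at neutrophil sums of 541 and 310 RPM.

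Other ligands of the same families were scarce. Csf2, which encodes GM-CSF, Csf3, which encodes G-CSF, Il3 and Il5 were listed at 0 in all 10 libraries. Kitl, the ligand of the receptor Kit, was at 4.19 to 9.18 RPM and Flt3l, the ligand of Flt3, at 0.144 to 0.868 RPM. None of these 6 reached the minimum. Of 9 related receptors only Csf3r, the G-CSF receptor, was tested, at 98.2 to 177 RPM, with a log2 fold change of 0.25 in aged libraries (limma adjusted p = 0.358) and 0.14 between the labelled groups (adjusted p = 0.740). The alpha chains for IL-3 and IL-5, Il3ra and Il5ra, had at most 1 and 3 reads in a library.

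Genes that act near or downstream of these receptors were examined as lists. Of 20 tested signalling genes next to the receptors, 0 rose and 1 fell in each comparison, with median log2 fold changes of 0.03 and -0.07. Of all tested genes 6.14% and 3.78% were called, so 1 of 20 is near the background in both. Inpp5d, an inositol phosphatase that restrains PI3-kinase signalling, fell in aged libraries (log2 fold change -0.46, limma adjusted p = 0.0424). Tyrobp, the adaptor of TREM2, fell in the libraries labelled deltaMG (-0.998, adjusted p = 0.0107). Of 9 tested genes of the JAK-STAT axis, 1 rose in each comparison (medians 0.06 and 0.06), against 3.16% and 1.2% of all tested genes called higher, and in both it was Mcl1, a survival protein of the BCL2 family (0.59, adjusted p = 0.0101, and 0.56, adjusted p = 0.0472). Mcl1 was also 1 of the 5 genes with the profile nearest to Csf2ra, the others being Pfn1, Myh9, Lrrc58 and Hipk1 (root mean square 0.16 to 0.19 on the log2 scale). The profiles nearest to Csf2rb were those of Lcp1, Pfn1, Igsf6, Myadm and Lrrc58 (0.16 to 0.20). A gene with a flat profile would differ by 0.37 from Csf2ra and by 0.37 from Csf2rb.

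Of 7 tested transcription factors of myeloid cells, 0 were called in either comparison (median log2 fold changes -0.03 and -0.03). The highest values in the list were those of Ets2, at 0.72 (limma adjusted p = 0.103) and 1.05 (adjusted p = 0.0718). Spi1, which encodes PU.1, had log2 fold changes of 0.11 and 0.33 in the ageing and labelled comparisons, Irf8 of -0.03 and 0.01, and Runx1 of -0.16 and -0.10. Of 8 tested genes of receptor turnover 0 were called as well (medians -0.09 and -0.24). Cbl, which tags CSF1R for breakdown, had log2 fold changes of 0.02 and 0.38 (limma adjusted p = 0.955 and 0.300), and Adam17, a protease that sheds CSF1R from the surface, of -0.09 and -0.26 (adjusted p = 0.796 and 0.466).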

How the data were processed

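The authors deposited 1 table of normalised values per gene symbol, with 1 column per library. Per the labels' protocols, RNA of bead-purified cells was amplified with the NuGEN Ovation kit and made into libraries with the Ion Xpress Plus kit. The submitters' processing notes name GRCm38, mm10 and FastQC. Not given in the sources used here were the aligner, counter, annotation, normalisation and strand setting. The deposited values were read as RPM because low values were whole multiples of a library-wide step above the constant of 0.0001 in every cell. Within a tolerance of 0.05, 94.2% to 94.6% of values up to 500 reads were whole. No count model was used because the table held normalised values and not raw counts. Listed genes held 18.7% to 23.5% of the scaled reads.

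The test took the 4151 of 24453 genes that reached 10 RPM in 2 or more libraries. Log2(RPM + 1) values of all 10 libraries were fitted with limma 3.58.1 (R 4.3.3) as 4 groups with 1 shared spread and a mean-dependent prior, with 6 residual degrees of freedom. Benjamini-Hochberg adjusted p under 0.05 over all tested genes defined a call. The fit was tested on simulated data with 200 changed genes per comparison and independent noise for each gene. The simulation held no mixture of cells or sexes, so it does not check the member calls. Neutrophil and monocyte scores are means of log2(RPM + 1) over the marker lists. Ratios and the untested member were compared by two-sided exact permutation tests over libraries (scipy 1.17.1), and coding sequences were aligned with Biopython 1.88. Coordinates and exon lengths are from GENCODE M21. Alternatives covered scaling, pseudocount, filter, libraries in the fit, replicate block, prior, covariates and leaving out each library, and, after seeing the data, a monocyte score and exchanged deltaMG and control labels.

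Members and lists were chosen with earlier results of these data known. Named genes were the members, up to 4 called genes per list and the 5 nearest profiles of Csf1r, Csf2ra and Csf2rb. Other genes given by name were chosen after their values were seen.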

Additional observations from a re-analysis of the deposited data

Results flagged for a closer look

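The difference between the effects on Csf1 in the 2 experiments was 2.26 on the log2 scale (limma adjusted p = 0.000263). It was picked out because the test of the difference passed. Csf1 was higher in 3 of 3 aged libraries than in any young library. It was lower in 2 of 2 libraries labelled deltaMG than in either library labelled control. The direction in the other experiment rests on labels that the level of Rab7 does not check. With those labels exchanged the difference would be -0.60 (limma adjusted p = 0.246).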

How the results depend on the processing

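Of 310 recomputed log2 differences of the 5 tested members, 278 kept their direction and side of the threshold, 16 lost the call, 9 gained it and 7 changed sign. In the ageing comparison Csf1 lost its call with no filter and with the replicate block (both 0.83, adjusted p = 0.0576 and 0.0688), with the neutrophil score (0.66) and with the monocyte score (0.46), and ranged from 0.67 to 0.94 with single libraries left out. Csf2rb lost its call with no filter, own groups only, the replicate block and a constant prior (each 0.75, adjusted p = 0.0608 to 0.122), with the neutrophil score (0.50) and with the monocyte score (0.14), and ranged from 0.55 to 0.93. Csf2ra was 0.66 with median-of-ratios rescaling and -0.092 with the monocyte score, and ranged from 0.36 to 0.75. Csf1r ranged from -0.59 to -0.41 with single libraries left out and reached -0.28 with the monocyte score, and Csf2rb2 from -0.064, without aged replicate 2, to 0.23. Between the labelled groups Csf2rb was -0.24 with the neutrophil score and -0.22 with the monocyte score, and Csf1r ranged from -0.040 to 0.42. For the difference of effects, Csf1r was -0.73 with quantile normalisation and -0.73 with the neutrophil score, passing both times, and ranged from -0.91 to -0.45. There Csf2rb was 0.74 with the neutrophil score, also passing, but 0.35 with the monocyte score (adjusted p = 0.436) and 0.39 to 0.78 with single libraries left out, and Csf2ra was -0.15 with the monocyte score and ranged from -0.11 to 0.27. The cause of these changes was not tested. Replicate numbers were not used to pair libraries in the main fit. Deviations of same-numbered aged and young libraries correlated at -0.39 to -0.14. With 2 libraries a group the deviations mirror each other, so the labelled groups give a single value (0.12), which cannot decide the pairing. The 255 calls of the ageing comparison became 119 with no filter, 121 with own groups only, 66 with the replicate block, 159 with the neutrophil score and 45 with the monocyte score, and 96 to 422 with a library left out. The 157 calls between the labelled groups became 239 with median-of-ratios rescaling, 86 with no filter, 510 with own groups only and 69 with the replicate block, and 25 to 317 with a library left out. A group left with 1 library was taken to vary as much as the rest. Depth limits Il34 and the related ligands, which had 0 to 75 reads in a library.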

Other observations

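The genes whose profiles over the 10 libraries were nearest to that of Csf1, chosen after its values were seen, were Lgals3bp, Gm5148, Eef1a1, Plek and H2-D1. Their root mean square differences from Csf1 were 0.31 to 0.42 on the log2 scale, against a median of 0.63 over the 687 genes compared, all averaging 50 RPM or more. A gene with a flat profile would differ from Csf1 by 0.58. The letters GAGGAA, the core of many PU.1 elements, were found on either strand in 23.3% of 32851 promoter windows. The Csf2ra window held them at 2 places, 14 and 8 bases before the start, the Csf2rb2 window at 1 and the Csf1 window at none.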
